A study of Mus musculus with 10 samples.

Results

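The genes that take up arginine, cleave it to ornithine and turn ornithine into polyamines were examined in mouse skin. The 10 genes Slc7a1, Arg1, Arg2, Odc1, Azin1, Amd1, Srm, Sms, Sat1 and Smox were taken by gene symbol, and all 10 were found among the 20611 genes listed for each library. Skin mRNA was sequenced from 5 Klk6+ mice (3 males and 2 females, numbered 1 to 3 and 4 to 5) and from 5 mice labelled WT (3 males and 2 females, numbered likewise). Klk6+ mice carried both Tetos-Klk6, a Myc/His-tagged mouse Klk6 transgene behind a tetracycline-responsive element, and K5-tTA, a transactivator driven by the bovine keratin 5 promoter. That promoter is active in epidermal keratinocytes and in some other stratified squamous epithelia, and the transactivator works only without doxycycline. The control littermates carried no transgene or only 1 of the 2, in which state the Klk6 transgene is not expressed, so some controls may hold K5-tTA or Tetos-Klk6 alone; the labels do not say which. Both lines were backcrossed to C57BL/6. Breeding took place on doxycycline because no transgenic pups were born without it. The Klk6+ mice were returned to doxycycline chow at 10 to 11 weeks, shortly before they became moribund, and tissue was taken at 14 to 16 weeks. The labels do not say whether the controls received that chow. Klk6 encodes a secreted trypsin-like protease of the kallikrein family.

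Arginase splits arginine into urea and ornithine. Ornithine decarboxylase then makes putrescine, and spermidine synthase and spermine synthase add aminopropyl groups, which come from decarboxylated S-adenosylmethionine, to give spermidine and spermine. Breakdown runs through an acetyltransferase and through oxidases that release hydrogen peroxide and aldehydes. Polyamines bind nucleic acids and are needed for cell growth, and in skin ornithine decarboxylase is known for its activity in growing hair follicles and in proliferating or tumour-promoted epidermis.

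Of the 10 genes, 9 passed the filter on low counts. Of these, 8 were called (adjusted p below 0.05), where 72.8% of all 14861 genes tested were. Higher in Klk6+ skin were Slc7a1, Arg1, Arg2, Odc1, Srm, Sat1 and Smox, which is 7 of 9 against 37.7% of all genes tested. Sms was lower, which is 1 of 9 against 35.1%, and Azin1 was not called. The 2 genotypes did not overlap in 6 of the 9 genes, where 57.0% of all genes tested did not overlap. The median log2 fold change of the 9 genes was 1.35, beside 0.04 over all genes tested. These shares describe genes picked with results of the same data in view.

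Values are given in CPM, the count of a gene scaled to a fixed library size after TMM normalisation. Library totals ran from 26521019 to 41970272 counts. The transgene's own gene, Klk6, was at 12.7 to 26.5 CPM in WT skin and at 10293 to 14773 CPM in Klk6+ skin. Its log2 fold change was 9.45 ± 0.22 (SE), and each library matched its genotype label. Klk6 was this high although the Klk6+ mice had been returned to doxycycline chow before collection, and why was not tested. Whole skin was sampled and its makeup differed between the genotypes. The summed CPM of 16 skeletal muscle markers was 62869 to 94806 in WT and 4847 to 9795 in Klk6+ libraries, and all 16 were lower. Keratinocyte markers summed to 7064 to 19517 and to 25956 to 37605 (7 of 10 higher, 1 lower), and 10 of 10 markers of dividing cells were higher. Neutrophil markers were higher in 8 of the 8 tested and sebaceous gland markers in 8 of 10. Lower were 9 of 10 macrophage and monocyte markers, 5 of 6 of alternatively activated macrophages, 9 of 10 of adipocytes, 9 of 10 of fibroblasts, 7 of 8 of endothelium and 6 of 7 of T and NK lymphocytes; 1 was higher on each of the first 3 of these lists. In hair follicle markers 2 of 14, and in red blood cell markers 1 of 3, were higher and none lower. Over all genes tested, 37.7% were higher and 35.1% lower. No marker that was listed stood at 0 in a whole group. In such tissue, fewer cells of a type and less RNA per cell cannot be told apart. The part of these shifts in the results that follow was not tested, except where a value is given.

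Promoter sequences are shown for 3 of the genes that the results turn on: Odc1, which commits ornithine to polyamines, Smox, with the largest rise, and Sms, which fell. They come from RefSeq on GRCm38.p6, which had entries for 6 of the 10 genes (Amd1, Odc1, Sat1, Slc7a1, Smox and Sms). Each is the 250 bases before an annotated start, read 5′ to 3′ on the gene's strand. Capitals mark matches on either strand to GGGCGG, a GC box, in Odc1 and Smox, and to CACGTG, an E-box to which Myc and Max can bind, in Sms. The Odc1 stretch lies at chr12:17544623-17544872 on the plus strand, the Smox stretch at chr2:131491612-131491861 on the plus strand and the Sms stretch at chrX:157492288-157492537 on the minus strand. The gene positions given below come from GENCODE, whose outermost starts can differ from the RefSeq starts. By those positions the Smox stretch lies within the gene, the Odc1 stretch partly within it and the printed Sms stretch outside it.
Odc1: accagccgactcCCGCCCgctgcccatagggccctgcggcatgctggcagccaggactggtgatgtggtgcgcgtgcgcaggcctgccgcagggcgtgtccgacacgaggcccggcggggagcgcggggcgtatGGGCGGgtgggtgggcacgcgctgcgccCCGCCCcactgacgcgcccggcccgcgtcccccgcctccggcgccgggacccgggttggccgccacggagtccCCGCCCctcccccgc
Smox: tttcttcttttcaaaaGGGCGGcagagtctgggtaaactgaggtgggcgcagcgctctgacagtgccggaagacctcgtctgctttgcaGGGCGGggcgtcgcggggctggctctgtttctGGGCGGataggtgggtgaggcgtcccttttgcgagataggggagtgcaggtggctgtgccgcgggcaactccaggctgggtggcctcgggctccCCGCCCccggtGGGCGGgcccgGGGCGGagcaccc
Sms: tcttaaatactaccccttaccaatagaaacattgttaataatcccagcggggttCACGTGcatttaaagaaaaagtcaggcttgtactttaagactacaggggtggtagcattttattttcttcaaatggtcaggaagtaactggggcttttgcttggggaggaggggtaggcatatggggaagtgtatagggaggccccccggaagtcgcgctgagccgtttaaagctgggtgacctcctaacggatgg
The Odc1 stretch was 80.0% G or C and held 4 GC boxes, and the Smox stretch was 68.0% G or C and held 6. The stretch printed for Sms was 47.2% G or C and held no GC box and 1 E-box. A second Sms start, further inside the gene, was 75.2% G or C. It had 4 GC boxes, which overlap one another in part, and no E-box. No E-box was found in the other promoters of the listed genes. The sequence TGACGTCA was found in none, and TGANTCA once, in the outer of the Slc7a1 starts. Among 32841 RefSeq promoters of the same length, 32.7% held GGGCGG, 6.02% CACGTG, 6.75% TGANTCA and 1.55% TGACGTCA. Among the 19047 of them that belong to genes listed in these libraries, 44.7% held GGGCGG, 6.89% CACGTG, 6.19% TGANTCA and 2.03% TGACGTCA. A match is only a match of letters in these windows.

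Slc7a1 encodes the cationic amino acid transporter CAT-1, through which many cells import arginine (chr5:148327410-148399904, minus strand, GRCm38). In WT mice 1 to 5 it was at 19.4, 40.3, 18.5, 12.1 and 14.5 CPM. In Klk6+ mice 1 to 5 it was at 42.2, 78.7, 72.8, 57.4 and 75.3 CPM. Every Klk6+ library was above every WT library, though Klk6+ 1 exceeded WT 2 by little. The mean went from 20.9 ± 11.2 to 65.3 ± 15.3 CPM (SD, n = 5), a log2 fold change of 1.71 ± 0.30 (edgeR, adjusted p = 0.00048), or 3.27-fold.

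Both arginase transcripts rose. Arg1 encodes the cytosolic arginase, known from the liver's urea cycle and also made by keratinocytes and by alternatively activated macrophages (chr10:24915221-24927484, minus strand). It was at 46.2, 31.3, 35.1, 30.8 and 22.1 CPM in WT mice 1 to 5. The Klk6+ mice had 79.9, 40.7, 54.0, 61.8 and 36.3 CPM. The groups overlapped, since WT 1 was above Klk6+ 2 and Klk6+ 5. The means were 33.1 ± 8.72 and 54.5 ± 17.4 CPM (SD, n = 5), a log2 fold change of 0.74 ± 0.22 (edgeR, adjusted p = 0.0110). The summed markers of alternatively activated macrophages moved the other way, from 547 to 3999 CPM in WT to 87.3 to 300.9 in Klk6+ libraries. In WT 1 gene, Retnla, made up most of that sum, with a mean of 1282 of 1715 CPM. Of the 6 markers 5 were lower, but Chil3 was higher (edgeR log2 fold change 5.12 ± 1.04, adjusted p = 0.00128). Keratinocyte markers moved the same way as Arg1 between the genotypes, with the sums given above. Within WT, Arg1 was highest in mouse 1 and lowest in mouse 5. The keratinocyte sum was 19517 and 7064 CPM in these mice, and the sum for alternatively activated macrophages 546.7 and 3999 CPM. Within Klk6+, Arg1 was also highest in mouse 1 and lowest in mouse 5. There the keratinocyte sum was 33272 and 35797 CPM, and the sum for alternatively activated macrophages 127.3 and 300.9 CPM. The part of either cell type in Arg1 was not tested.

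Arg2 encodes the mitochondrial arginase (chr12:79130777-79156301, plus strand). It was scarce in WT skin, at 2.87, 2.74, 1.53, 2.22 and 1.91 CPM in mice 1 to 5, or 51 to 125 counts. In Klk6+ mice 1 to 5 it was at 6.49, 6.10, 14.1, 11.8 and 8.79 CPM, from 175 to 536 counts. No Klk6+ value fell within the WT range. The mean rose from 2.26 ± 0.564 to 9.46 ± 3.46 CPM (SD, n = 5), a log2 fold change of 2.06 ± 0.29 (edgeR, adjusted p = 0.000105). Part of Arg2 overlaps exons of Vti1b on the opposite strand, and the library kit does not mark strand, so reads there cannot be told apart. Vti1b itself, which encodes a protein of vesicle fusion, was at 66.2 ± 2.93 CPM in WT and 62.6 ± 4.71 CPM in Klk6+ skin (SD, n = 5; edgeR log2 fold change -0.08 ± 0.07, adjusted p = 0.275).

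The balance of the arginases moved toward Arg2. In WT libraries 1 to 5 there were 16.1, 11.4, 23.0, 13.9 and 11.6 Arg1 counts per Arg2 count. In Klk6+ libraries 1 to 5 there were 12.3, 6.68, 3.82, 5.22 and 4.13. Klk6+ 1 lay within the WT range and the other 4 below it. The Arg1 to Arg2 ratio was 2.51-fold lower in Klk6+ skin (log2 difference -1.33; two-sided exact permutation test, p = 0.0238, adjusted over 4 ratios 0.0317). The adjusted p was 0.0635 when any 1 of WT 1, WT 3, WT 4, Klk6+ 2, Klk6+ 3, Klk6+ 4 or Klk6+ 5 was left out, with the log2 difference between -1.38 and -1.16. Per transcript length, in deposited FPKM, Arg1 stood 14.5 ± 4.55 times above Arg2 in WT and 6.13 ± 3.31 times above it in Klk6+ skin (SD, n = 5).

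**Figure D1:**
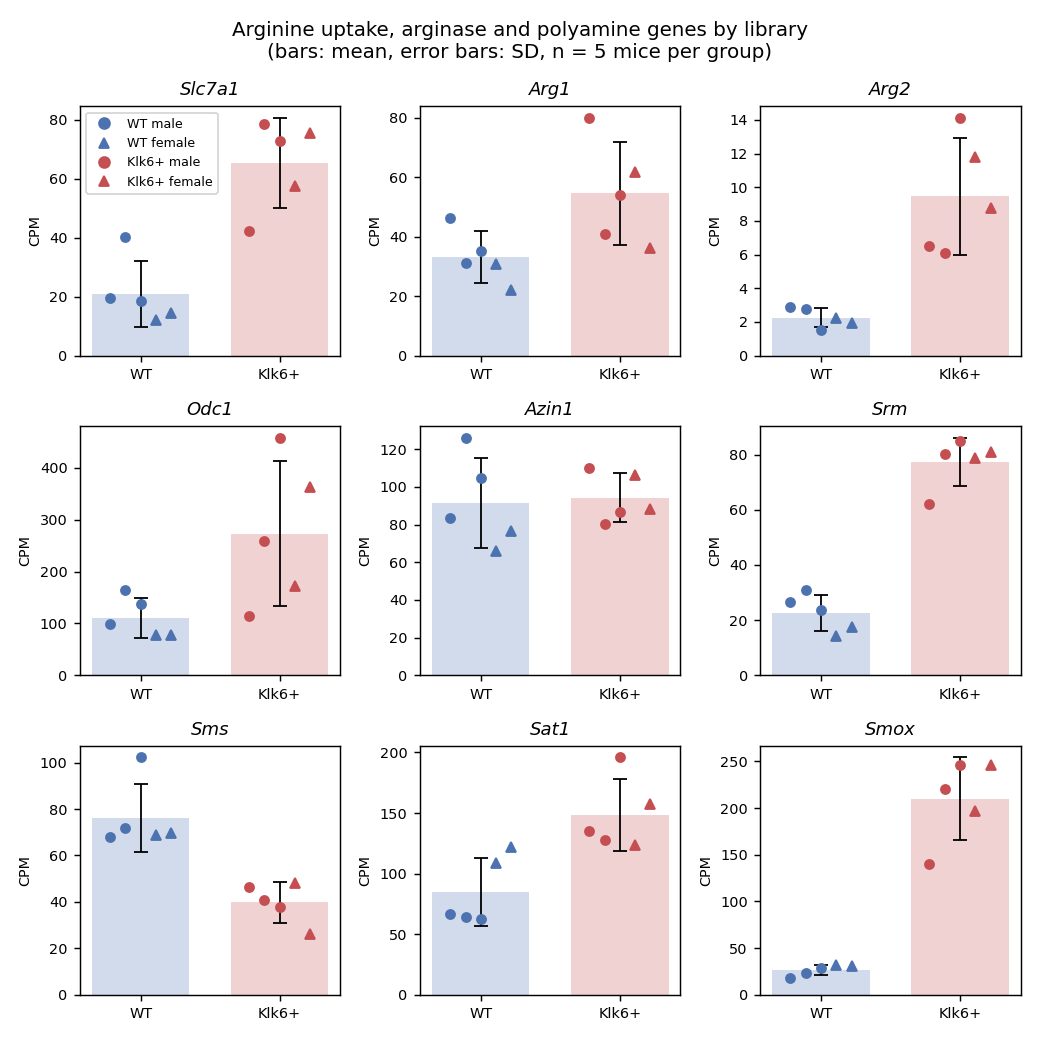
Scaled counts (CPM, linear axes from 0) of the 9 genes tested, 1 panel a gene; each point is 1 mouse, with WT on the left and Klk6+ on the right, symbols give the sex, bars the mean and error bars the SD of 5 mice. Smox is separated by the widest gap, Arg1, Odc1 and Azin1 overlap, and Sms is the gene with every Klk6+ mouse below every WT mouse.

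Odc1 encodes ornithine decarboxylase, the short-lived enzyme that commits ornithine to polyamine synthesis (chr12:17544794-17551505, plus strand). WT mice 1 to 5 had 99.7, 163.7, 137.0, 76.8 and 77.1 CPM. Klk6+ mice 1 to 5 had 113.5, 259.8, 458.1, 171.6 and 362.1 CPM. Klk6+ 3 and Klk6+ 5 stood highest and Klk6+ 1 lay inside the WT range. The mean went from 110.9 ± 38.4 to 273.0 ± 140 CPM (SD, n = 5), a log2 fold change of 1.35 ± 0.36 (edgeR, adjusted p = 0.00671). Without Klk6+ 3 and Klk6+ 5 together, a choice made after seeing the data, it was 0.67 ± 0.28 and was no longer called (edgeR, adjusted p = 0.0571). Those 2 libraries had the highest neutrophil marker sums of all, 369.2 and 301.9 CPM, where the other Klk6+ libraries had 64.1 to 124.1. They had the lowest hair follicle marker sums of the Klk6+ libraries, 26.8 and 31.1 CPM, while Klk6+ 2, with 4823, had an Odc1 value between the others. Klk6+ 3 and Klk6+ 5 also had the highest macrophage and monocyte sums of the Klk6+ libraries, 1072 and 1539 against 472.9 to 675.1 CPM. Their sebaceous gland sums were the lowest, 2627 and 1220 against 3539 to 4628 CPM, and their fibroblast sums too, 6148 and 4820 CPM. Of the Klk6+ libraries these 2 also had the highest skeletal muscle sums, 9127 and 9795 CPM, and endothelium sums, 295.5 and 297.1 CPM. The same held for red blood cells (40.2 and 79.3 CPM) and alternatively activated macrophages (196.8 and 300.9 CPM). Within WT the neutrophil sum was highest in WT 5, at 21.8 CPM, where Odc1 was at 77.1 CPM. The part of these cell types in Odc1 was not tested. Of the 50-base windows of Odc1 transcripts, 24.3% also occur in 16 other genes, so its counts depend on how such reads were treated.

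The regulators of ornithine decarboxylase did not follow Odc1. Azin1 encodes antizyme inhibitor, an inactive relative of the decarboxylase that draws antizyme away from it (chr15:38487427-38519266, minus strand). It was at 83.4, 126.1, 104.8, 65.8 and 76.7 CPM in WT mice 1 to 5 and at 109.8, 80.1, 86.4, 106.4 and 88.2 CPM in Klk6+ mice 1 to 5. The groups lay over one another, and the log2 fold change was 0.07 ± 0.17 (edgeR, adjusted p = 0.723). Its sign was not stable: over 20 other settings it ran from -0.09 to 0.16, and it was called in none of them. Of 3 tested genes of antizymes and related regulators, 2 were lower, where 35.1% of all genes tested were. Oaz2, an antizyme that targets the decarboxylase for breakdown, fell from 161.0 ± 20.9 to 57.9 ± 5.21 CPM (SD, n = 5), and no Klk6+ value reached the WT range (edgeR log2 fold change -1.47 ± 0.11, adjusted p = 1.53e-06). Azin2, a second antizyme inhibitor, fell from 7.46 ± 1.53 to 4.53 ± 1.09 CPM (SD, n = 5; edgeR log2 fold change -0.71 ± 0.21, adjusted p = 0.0118).

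Oaz1, the most widely expressed antizyme, was at 12.1 ± 1.14 and 11.8 ± 2.01 CPM (SD, n = 5; edgeR log2 fold change -0.03 ± 0.14, adjusted p = 0.854). Its counts are uncertain: the mean CPM and the mean deposited FPKM of Oaz1 imply a length of 119 bases, where its annotated exons span 2558. In FPKM it was 102.4 ± 9.79 in WT and 98.6 ± 16.5 in Klk6+ skin (SD, n = 5). Odc1 counts per Oaz1 count were 9.42, 14.5, 10.3, 5.89 and 6.36 in WT libraries 1 to 5. The Klk6+ libraries gave 8.09, 19.8, 44.3, 13.8 and 39.5. Klk6+ 1 and Klk6+ 4 lay within the WT range. The log2 difference of the Odc1 to Oaz1 ratio, 1.24, did not pass the test (two-sided exact permutation test, p = 0.0556, adjusted 0.0556), and passed it without WT 2 (1.42, adjusted p = 0.0476) or without Klk6+ 1 (1.58, adjusted p = 0.0317).

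Amd1 encodes S-adenosylmethionine decarboxylase, which supplies the aminopropyl groups (chr10:40287458-40302186, minus strand). Its counts could not be used. From 0 to 5 reads were counted in a library, 16 in all 10, and the gene did not pass the filter. Of its 50-base windows, 78.1% occur in other genes and 76.7% in Amd2, an intronless copy on the same chromosome (chr10:35708675-35711892, minus strand). The coding sequences of Amd1 and Amd2 are 1002 bases each and differ at 1 of them. Amd2 had 0 counts in every library but 21.2 to 43.4 FPKM in the authors' deposited values, so the counts and the FPKM treated these reads differently. Amd1 in FPKM was at 2.51, 4.86, 3.18, 3.08 and 0.00985 in WT mice 1 to 5, and at 14.9, 6.97, 8.09, 0.0114 and 4.07 in Klk6+ mice 1 to 5. The sum of both genes avoids the split between them. It was 29.6, 32.2, 43.6, 24.3 and 23.6 FPKM in WT and 37.9, 36.6, 47.4, 43.5 and 44.5 FPKM in Klk6+ mice 1 to 5. The groups overlapped through WT 3, and the means were 30.7 ± 8.10 and 41.9 ± 4.58 FPKM (SD, n = 5); no test was made of this sum, which was formed after the values were seen.

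The synthases of spermidine and spermine moved in opposite directions. Srm encodes spermidine synthase, which turns putrescine into spermidine (chr4:148591503-148594993, plus strand). It was at 26.4, 30.8, 23.7, 14.4 and 17.4 CPM in WT mice 1 to 5. In Klk6+ mice 1 to 5 it was at 62.3, 80.2, 84.9, 78.7 and 80.9 CPM. The lowest Klk6+ value was above the highest WT value. The mean rose from 22.5 ± 6.65 to 77.4 ± 8.76 CPM (SD, n = 5), 3.54-fold in the fit (edgeR log2 fold change 1.82 ± 0.17, adjusted p = 7.79e-06).

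Sms encodes spermine synthase, which turns spermidine into spermine (chrX:157443855-157492287, minus strand). WT mice 1 to 5 had 67.8, 71.7, 102.2, 68.9 and 69.8 CPM. Klk6+ mice 1 to 5 had 46.6, 41.0, 37.9, 48.3 and 26.1 CPM. Every Klk6+ mouse was below every WT mouse. The mean fell from 76.1 ± 14.7 to 40.0 ± 8.82 CPM (SD, n = 5), 1.90-fold lower in the fit (edgeR log2 fold change -0.93 ± 0.17, adjusted p = 0.000664). Of the 50-base windows of Sms, 17.5% also occur elsewhere, nearly all in the pseudogene Sms-ps.

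Within each library, Srm counts per Sms count were 0.389, 0.429, 0.231, 0.209 and 0.250 in WT mice 1 to 5. They were 1.34, 1.95, 2.24, 1.63 and 3.10 in Klk6+ mice 1 to 5. The groups did not overlap. The ratio was 6.82-fold higher (log2 difference 2.77; two-sided exact permutation test, p = 0.00794, the smallest that 5 against 5 can give; adjusted p = 0.0159). Since Srm was higher and Sms lower in every Klk6+ mouse than in every WT mouse, that p-value was fixed beforehand. It adds no evidence to the results of the 2 genes. Per length, in deposited FPKM, the ratio of Srm to Sms was 0.850 ± 0.281 in WT and 5.78 ± 1.91 in Klk6+ skin (SD, n = 5). It ran from 0.588 to 1.21 in WT mice, with Srm above Sms in WT 1 and WT 2, and from 3.77 to 8.74 in Klk6+ mice.

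**Figure D2:**
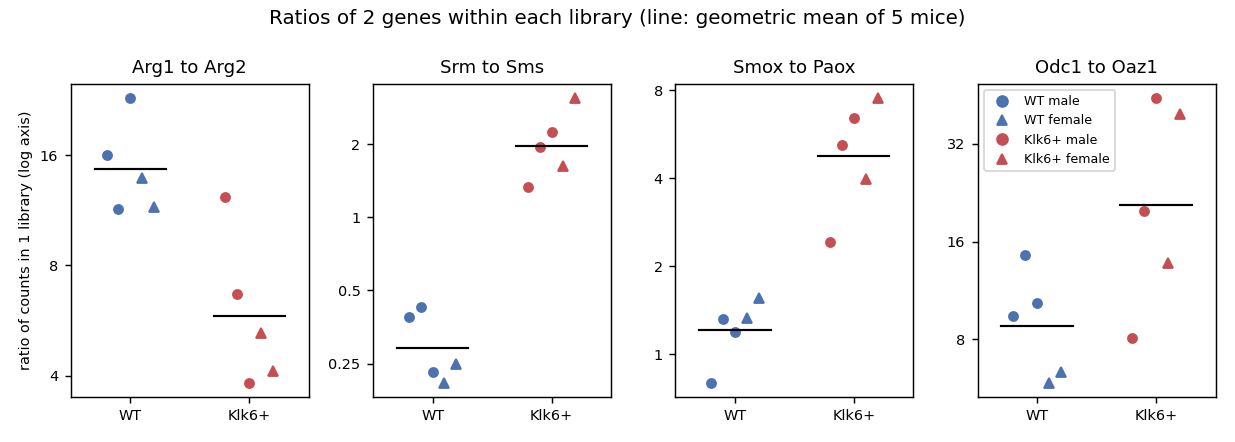
Ratio of the counts of 2 genes within each library (log axis), 1 panel a ratio; points are mice, symbols give the sex, and lines mark the geometric mean of 5 mice. Srm to Sms and Smox to Paox do not overlap between genotypes, while Klk6+ 1 lies inside the WT range for Arg1 to Arg2 and for Odc1 to Oaz1.

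The largest rise among the 9 genes was that of Smox, which encodes spermine oxidase, the enzyme that turns spermine straight back into spermidine and releases hydrogen peroxide (chr2:131491496-131525922, plus strand). It was at 18.0, 23.8, 28.6, 31.9 and 30.8 CPM in WT mice 1 to 5. Klk6+ mice 1 to 5 had 140.3, 220.2, 246.5, 197.1 and 246.6 CPM. The lowest Klk6+ mouse was far above the highest WT mouse. The mean rose from 26.6 ± 5.74 to 210.1 ± 44.2 CPM (SD, n = 5), a log2 fold change of 2.99 ± 0.19, or 7.97-fold (edgeR, adjusted p = 7.63e-07). None of the 50-base windows of Smox or of Arg1 occurs in another gene.

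Sat1 encodes spermidine/spermine acetyltransferase, which marks polyamines for export or for oxidation by the enzyme of Paox (chrX:155213132-155216449, minus strand). WT males 1 to 3 had 66.8, 64.0 and 62.7 CPM, and WT females 4 and 5 had 108.8 and 122.0. Klk6+ males 1 to 3 had 135.3, 127.8 and 195.9 CPM, and Klk6+ females 4 and 5 had 124.0 and 157.3. The WT sexes did not overlap, whereas the Klk6+ sexes did. Every Klk6+ mouse was above every WT mouse, by little for Klk6+ 4 over WT 5. The mean went from 84.9 ± 28.3 to 148.1 ± 29.7 CPM (SD, n = 5), a log2 fold change of 0.86 ± 0.20 (edgeR, adjusted p = 0.00269).

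Paox encodes the peroxisomal oxidase that acts on acetylated polyamines, and it rose too, from 21.7 ± 2.62 to 44.2 ± 9.86 CPM (SD, n = 5; edgeR log2 fold change 1.03 ± 0.16, adjusted p = 0.000191). There were 0.800, 1.32, 1.19, 1.33 and 1.55 Smox counts per Paox count in WT mice 1 to 5, and 2.42, 5.20, 6.44, 3.97 and 7.52 in Klk6+ mice 1 to 5. The groups did not overlap, and the ratio was 3.93-fold higher in Klk6+ skin (log2 difference 1.97; two-sided exact permutation test, p = 0.00794, adjusted 0.0159). Of the windows of Paox, 28.5% are shared with other genes.

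Levels can be compared between genes only per length, here in deposited FPKM. In WT skin Sat1 was highest, at 75.2 ± 25.8 FPKM, then Odc1 at 40.3 ± 13.1, Arg1 at 22.3 ± 6.17, Sms at 20.5 ± 3.85, Srm at 17.1 ± 4.80, Azin1 at 16.6 ± 3.97 and Smox at 12.6 ± 2.74 (SD, n = 5). Amd1, Slc7a1 at 2.58 ± 1.31 and Arg2 at 1.59 ± 0.400 FPKM came last. Each of these neighbours overlapped in their ranges except Smox and Amd1. In Klk6+ skin the order was Sat1 at 131.9 ± 25.2, Odc1 at 100.2 ± 50.3, Smox at 100.2 ± 21.02, Srm at 59.3 ± 6.74, Arg1 at 37.0 ± 12.2, Azin1 at 17.4 ± 2.84 and Sms at 10.9 ± 2.50 FPKM, followed by Slc7a1 at 8.12 ± 1.78, Amd1 and Arg2 at 6.75 ± 2.49. There the ranges of neighbours were apart between Smox and Srm, between Arg1 and Azin1, and between Azin1 and Sms. By mean FPKM, Smox stood below Azin1 in WT and level with Odc1 in Klk6+ skin, but in WT 4 and WT 5 it was above Azin1. By mean FPKM, Sms stood above Srm in WT, though not in WT 1 and WT 2, and below Azin1 in Klk6+ skin.

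**Figure D3:**
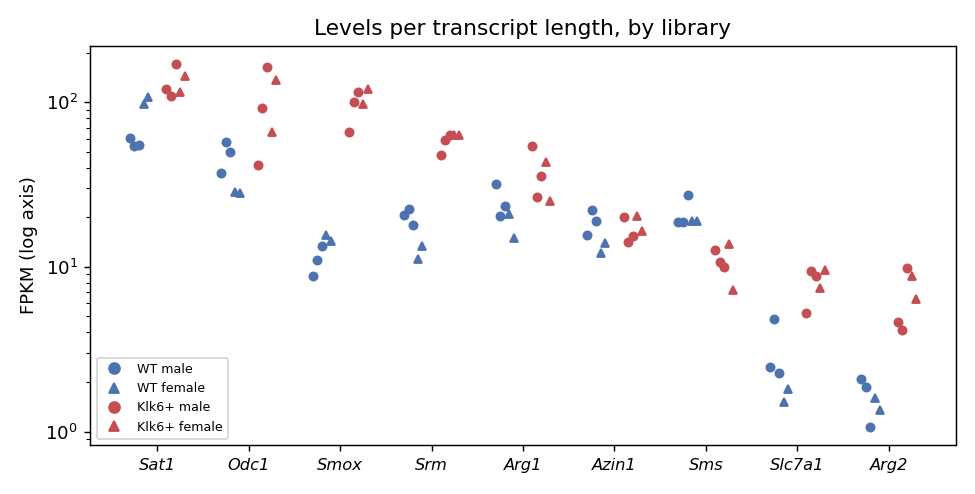
Deposited FPKM (log axis) of the 9 genes tested in every library, without Amd1. Each point is 1 mouse, colours give the genotype and symbols the sex. Smox joins Sat1 and Odc1 at the top in Klk6+ skin, and Sms falls below Azin1.

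In males alone 6 of the 9 genes were called, 5 of them higher, where 64.4% of all genes tested were called and 33.4% were higher. In females alone 6 of 9 were called, again with 5 higher, where 59.6% were called and 31.2% were higher. Slc7a1, Arg2, Srm and Smox were higher and Sms lower in each sex. Odc1 was called in females (log2 fold change 1.79 ± 0.57, edgeR adjusted p = 0.0233), and in males its value was 1.05 ± 0.46 (adjusted p = 0.0702). Without Klk6+ 5 the female value of Odc1 was 1.09 ± 0.63 (adjusted p = 0.174). Arg1 passed in neither sex alone, at 0.63 ± 0.29 in males (adjusted p = 0.0809) and 0.89 ± 0.36 in females (adjusted p = 0.0558). Sat1 was called in males, at 1.25 ± 0.17 (edgeR, adjusted p = 0.000249), and in females its value was 0.29 ± 0.21 (adjusted p = 0.263).

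None of the 9 genes differed between the sexes in its response by edgeR's interaction test, where 0.00% of all genes tested were called; DESeq2 and limma-voom called none of the 9 either. At unadjusted p below 0.05 there were 2 of 9. Srm had an interaction of 0.83 ± 0.23 on the log2 scale, higher in females (edgeR, adjusted p = 0.306), and Sat1 one of -0.96 ± 0.27, lower in females (edgeR, adjusted p = 0.306). With 2 females in each genotype such differences were estimated from few mice.

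**Figure D4:**
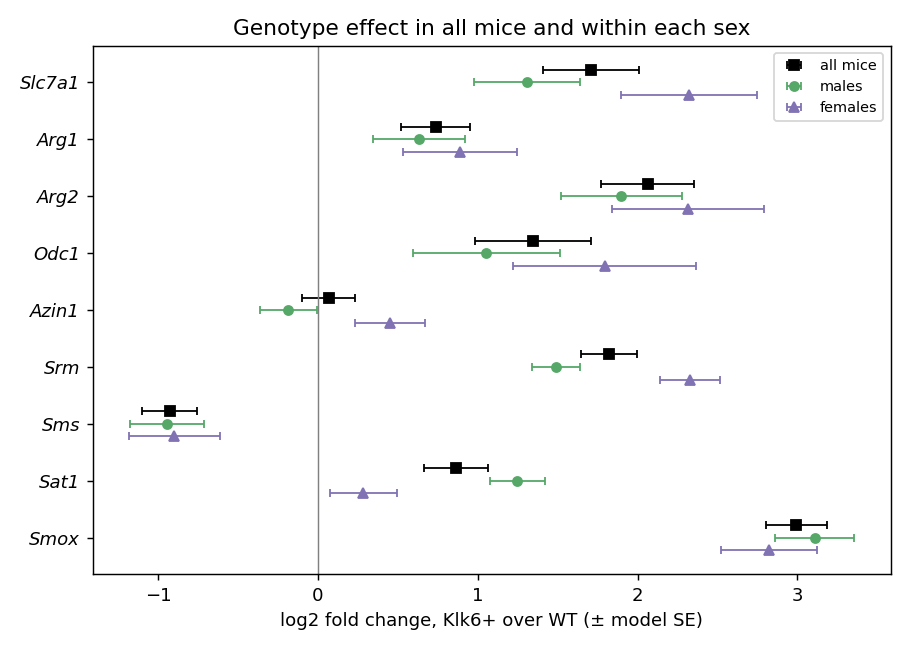
Log2 fold change of Klk6+ over WT for the 9 genes tested, with bars for the model SE, in all mice (squares, 5 against 5), males (circles, 3 against 3) and females (triangles, 2 against 2). Sms alone lies below 0 in all 3, Smox lies near 3 in all 3, and the male and female bars do not meet for Slc7a1, Azin1, Srm and Sat1.

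Beyond the 9 genes, 48 tested genes of neighbouring pathways were split nearly evenly, with 21 higher, 22 lower and 5 not called. This was 43 of 48 called, beside the 72.8% of all genes tested, and their median log2 fold change was -0.06. Spermidine donates the side chain of hypusine, a modified lysine in the translation factor eIF5A. Eif5a rose from 457.7 ± 86.2 to 1147 ± 95.1 CPM (SD, n = 5; edgeR log2 fold change 1.34 ± 0.12, adjusted p = 4.38e-06). Its modifying enzymes rose less, Dohh, the hydroxylase, by 0.76 ± 0.08 and Dhps, the synthase, by 0.30 ± 0.10 on the log2 scale (edgeR adjusted p 1.29e-05 and 0.0156). The counts of Dohh are less certain, since 45.3% of its 50-base windows also occur in Gm48551, whose exons overlap its own. The call for Dhps was lost in 7 of 20 other settings. Eif5a2, the scarce second isoform, was lower (-0.52 ± 0.16, edgeR adjusted p = 0.0124), which made 3 of 4 higher and 1 lower, where 37.7% and 35.1% of all genes tested were.

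Transport and side branches of polyamine breakdown had 2 of 7 tested genes higher and 4 lower, beside 37.7% and 35.1% of all genes tested. Slc3a2, the heavy chain of several amino acid transporters, rose with Paox (log2 fold change 0.87 ± 0.14, edgeR adjusted p = 0.000253). Sat2, a relative of Sat1 (-1.27 ± 0.28, adjusted p = 0.00225), Atp13a2, a lysosomal polyamine exporter (-0.83 ± 0.18, adjusted p = 0.00226), and Slc18b1, a vesicular polyamine transporter (-0.56 ± 0.11, adjusted p = 0.00102), were lower. For Atp13a2 the log2 fold change was -0.46 ± 0.15 in males and -1.37 ± 0.19 in females, and it was called in each sex. Its interaction with sex was not called (edgeR, adjusted p = 0.292). In the supply and salvage of methionine, 5 of 8 were higher and 3 lower, beside 37.7% and 35.1% of all genes tested. Ahcy, which clears S-adenosylhomocysteine, rose from 33.3 ± 2.84 to 99.0 ± 12.2 CPM (SD, n = 5; edgeR log2 fold change 1.57 ± 0.10, adjusted p = 9.12e-07). Of the 50-base windows of Ahcy, 68.7% also occur in other genes, 66.0% in Gm4737, so its counts depend on how such reads were treated. Mtap, which removes the methylthioadenosine left by Srm and Sms, rose by 0.70 ± 0.11, and Enoph1 of the same salvage route by 0.64 ± 0.12 (edgeR adjusted p 0.000297 and 0.000616). Apip and Adi1, also of that route, were lower (-0.73 ± 0.13 and -0.40 ± 0.12, edgeR adjusted p 0.00047 and 0.0144), as was Mat2b, a regulatory subunit of S-adenosylmethionine synthase (-0.52 ± 0.11, adjusted p = 0.00153).

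Among other genes of arginine transport and use, 3 of 11 were higher, 6 lower and 2 not called. Over all genes tested, 37.7% were higher and 35.1% lower. Nos1, the nitric oxide synthase of nerve and skeletal muscle, fell from 73.5 ± 19.2 to 7.72 ± 3.51 CPM (SD, n = 5; edgeR log2 fold change -3.25 ± 0.32, adjusted p = 9.91e-06), beside the fall of the muscle marker sum given above. Slc7a2, a second cationic amino acid transporter, fell from 61.4 ± 8.68 to 19.0 ± 3.49 CPM (SD, n = 5; log2 fold change -1.69 ± 0.15, edgeR adjusted p = 4.61e-06), opposite to Slc7a1. Ddah2, which degrades methylated arginines, was lower as well (-1.44 ± 0.14, edgeR adjusted p = 7.9e-06). Nos2, the inducible synthase that competes with arginase for arginine, was at 0.585 to 2.46 CPM in WT and at 2.41, 1.39, 10.8, 2.69 and 8.83 CPM in Klk6+ mice 1 to 5. Its high values lay in Klk6+ 3 and Klk6+ 5, the Klk6+ libraries set apart above by the marker sums of several cell types. The log2 fold change was 2.01 ± 0.61 (edgeR, adjusted p = 0.0132), and without Klk6+ 3 it was 1.37 ± 0.66 (adjusted p = 0.0902). Asl, which releases arginine from argininosuccinate, and Prmt1, which methylates arginine in proteins, rose by 0.97 ± 0.09 and 0.98 ± 0.10 (edgeR adjusted p 4.48e-06 and 1.03e-05).

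Ornithine can also be exchanged with proline and glutamate. There 3 of 6 tested genes were higher and 3 lower, beside 37.7% and 35.1% of all genes tested. Aldh18a1, which makes the glutamate semialdehyde from which ornithine and proline derive, rose by 1.15 ± 0.16 on the log2 scale, and the reductase Pycrl by 0.63 ± 0.09 (edgeR adjusted p 0.000116 and 9.19e-05). Slc25a15, the mitochondrial ornithine carrier, rose by 0.26 ± 0.08 (edgeR, adjusted p = 0.0136), and its call was lost in 4 of 20 other settings: without Klk6+ 4 (0.17), without Klk6+ 5 (0.19), without Klk6+ 3 and Klk6+ 5 together (0.20) and with upper-quartile scaling (0.16, adjusted p = 0.124, the highest). Oat, the mitochondrial aminotransferase that takes ornithine away from polyamine synthesis, fell from 269.1 ± 36.9 to 158.6 ± 18.7 CPM (SD, n = 5; edgeR log2 fold change -0.76 ± 0.11, adjusted p = 0.000154). Pycr1 and Prodh, which degrades proline, were lower (-1.40 ± 0.31 and -1.09 ± 0.16, edgeR adjusted p 0.00218 and 0.000121).

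Odc1 is a textbook target of Myc, so the Myc network was listed as well. There 5 of 9 genes were higher, 3 lower and 1 not called, where 37.7% of all genes tested were higher and 35.1% lower. The largest values belonged to Mxd1, a Max partner that represses at E-boxes, which rose from 28.6 ± 6.44 to 176.0 ± 47.4 CPM (SD, n = 5; edgeR log2 fold change 2.64 ± 0.22, adjusted p = 2.95e-06). Mxd3 of the same family rose by 1.95 ± 0.43 and Max by 0.58 ± 0.08 (edgeR adjusted p 0.0021 and 0.000106). Mxd4, Mycl and Mnt were lower (-1.18 ± 0.08, -1.33 ± 0.25 and -0.57 ± 0.12, edgeR adjusted p 1.31e-06, 0.000802 and 0.0014). Myc itself, named here after its value was seen, was higher by 0.79 ± 0.27 (edgeR, adjusted p = 0.0201). Its groups overlapped: WT 2, at 100.1 CPM, was above every Klk6+ mouse (70.2 to 94.7 CPM), while the other WT mice had 31.7 to 39.1 CPM.

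**Figure D5:**
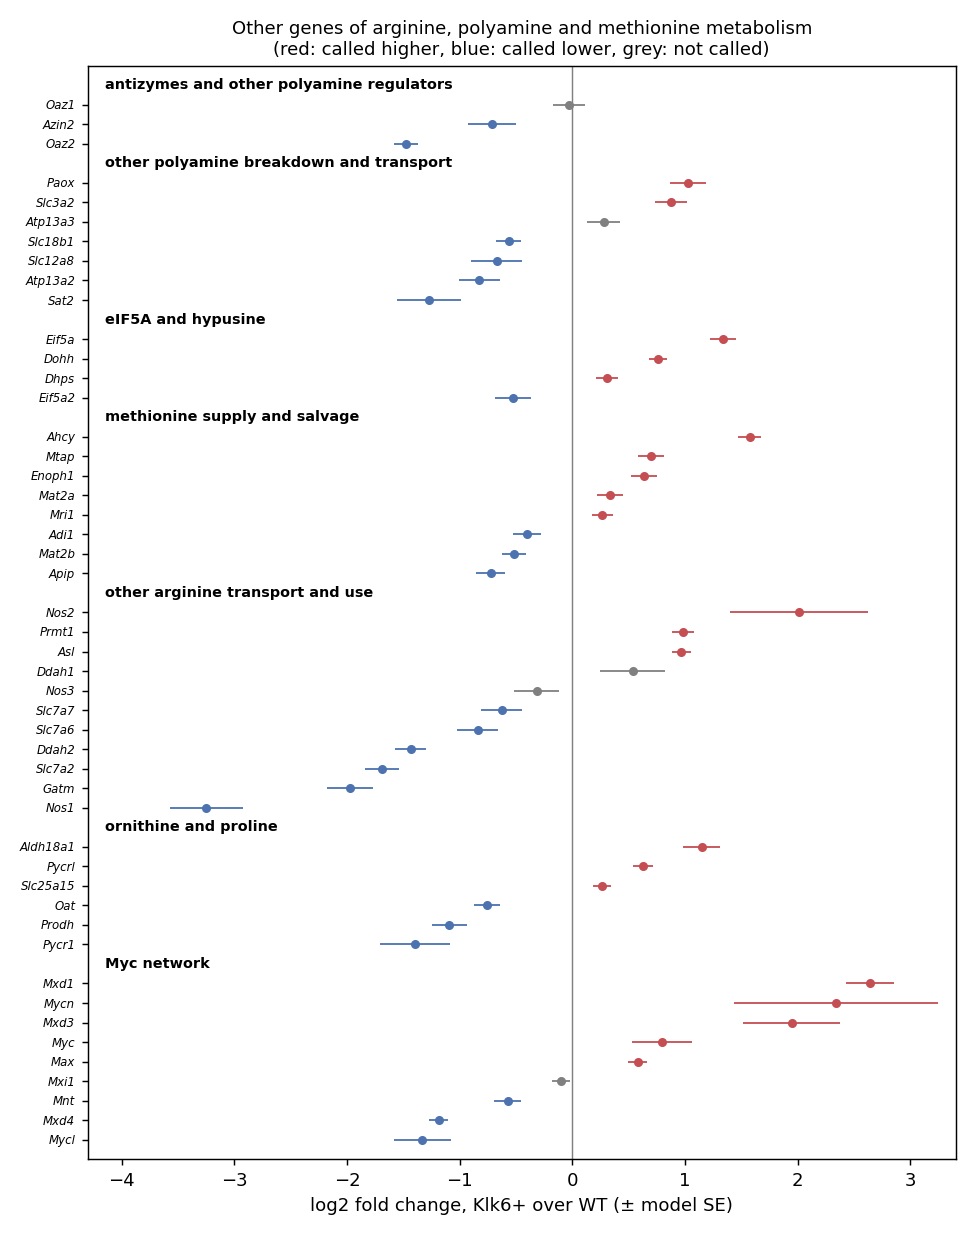
Log2 fold change of Klk6+ over WT (5 mice each) for the 48 tested genes of 7 neighbouring lists, with bars for the model SE; red is called higher, blue called lower and grey not called. Each list holds genes on both sides of 0 except the antizymes, of which none lies above it, and Nos1 and Mxd1 are the ends of the range.

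The genes whose values across the 10 libraries were most like those of Arg1, by the root mean square difference of log2 CPM from the WT mean, were Mterf1a (0.163), Hoxb2 (0.168) and Zfp930 (0.179), where the median of 13856 genes was 0.772. Those most like Odc1 were B3gnt5 (0.319), Itga3 (0.328) and Has2 (0.333), where the median gene was at 1.13. Both genes ranked first were scarce, near the limit of 1 CPM set on the mean. Mterf1a was at 1.51 ± 0.33 CPM in WT and 2.41 ± 0.81 CPM in Klk6+ skin, and B3gnt5 at 0.611 ± 0.265 and 1.55 ± 0.440 CPM (SD, n = 5). B3gnt5 makes a step of glycolipid synthesis, Itga3 encodes an integrin subunit that binds laminin and Has2 a hyaluronan synthase. Itga3 was at 49.7 ± 25.3 CPM in WT and 108.4 ± 44.2 CPM in Klk6+ skin, and Has2 at 6.75 ± 3.56 and 14.4 ± 7.03 CPM (SD, n = 5); these genes were picked for following Odc1, so their difference between genotypes is a description and no test is given.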

How the data were processed

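Skin was snap-frozen and pulverised, RNA was purified on silica columns, and polyA-selected libraries (TruSeq mRNA v2) were read by 50-cycle single-end sequencing on an Illumina instrument, per the labels' protocols. For each mouse the authors deposited raw read counts per gene and FPKM, which are scaled to transcript length and library size. The submitters' processing notes list HTSeq, TopHat2, Cufflinks 2.2.1 and SAMtools, with GRCm38 and mm10 as builds; how reads matching several genes were treated is not stated there. Replicate mice carried labels of their own, with no litter, batch or body site.

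The counts went into edgeR 4.0.16 (R 4.3.3): filterByExpr on genotype (minimum count 10; 14861 genes), TMM scaling, and quasi-likelihood F tests of genotype with sex as covariate (biological coefficient of variation 0.244). Effects within each sex and the interaction came from a model of 4 means. P-values were adjusted by Benjamini-Hochberg across all tested genes, and genes below 0.05 were called. For ratios of counts within a library, exact permutation tests (two-sided) were used. Deposited FPKM served for levels between genes and for limma-trend with pseudocounts of 0.1 and 1. DESeq2 1.42.0, limma 3.58.1 (voom), other scalings, no filter, no sex term and leaving out libraries were the alternatives. The fits were tested on simulated data. Positions and shared 50-base windows were taken from GENCODE M21 on GRCm38.

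The genes and lists were chosen with earlier results of these data known. Beside the 10 genes, the text names up to 3 called genes per direction and list by smallest p, the genes of the ratios, Klk6, and the 3 genes most like Arg1 and Odc1 with a mean of at least 1 CPM, ranked on log2(CPM + 0.01). Of the marker lists, sums and counts are given in place of single genes, except for Retnla and Chil3, which were named after their values were seen. An item of the pathway lists is not reported here. No library pair of a genotype agreed within sampling noise: the smallest chi-square per degree of freedom was 40.5.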

Additional observations from a re-analysis of the deposited data

Results flagged for a closer look

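Of the 9 genes in each genotype, 18 groups of 5 mice were examined for a mouse standing apart from the others, and 3 were found; chance gives about 1 in 20 groups. Srm in Klk6+ 1 was at 62.3 CPM, below the 78.7 to 84.9 CPM of the other Klk6+ mice; without that mouse the log2 fold change of Srm was 1.94 ± 0.15 (edgeR, adjusted p = 8.43e-06). Sms in WT 3 was at 102.2 CPM, above the 67.8 to 71.7 CPM of the other WT mice; without it the log2 fold change of Sms was -0.83 ± 0.15 (edgeR, adjusted p = 0.00107). Slc7a1 in WT 2 was at 40.3 CPM, above the 12.1 to 19.4 CPM of the other WT mice; without it the log2 fold change of Slc7a1 was 2.00 ± 0.22 (edgeR, adjusted p = 5.16e-05).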

How the results depend on the processing

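Over 20 other settings, 8 of the 9 genes kept the sign of their log2 fold change in each, Azin1 in 16. Arg1, Arg2, Srm, Sms, Sat1, Smox and Slc7a1 were called in all 20 and Odc1 in 19; the exception for Odc1, without Klk6+ 3 and Klk6+ 5 together, was added after seeing the data, and leaving out 1 library at a time gave Odc1 values of 1.02 to 1.60. Arg1, with the highest adjusted p of the 7, reached 0.0473 (range of values 0.52 to 0.87). The log2 difference of the Arg1 to Arg2 ratio ran from -1.60 to -1.16 and that of the Odc1 to Oaz1 ratio from 0.96 to 1.58 when 1 library was left out, with the calls as reported; the cause was not tested, but fewer libraries also raise the smallest p that the permutations can give. In females, Odc1 and Sms were not called without WT 4, WT 5 or Klk6+ 5, where the lone mouse left is assumed to vary like the other groups. In males, Odc1 was called without Klk6+ 1 and by DESeq2, and Arg1 without Klk6+ 2; in females, Arg1 was called by DESeq2 and without Klk6+ 1, Klk6+ 2 or Klk6+ 5. Nos2 lost its call in 3 of 20 settings: without Klk6+ 3, without Klk6+ 3 and Klk6+ 5 together (0.68, adjusted p = 0.169, the highest) and on log2(FPKM + 1) (0.64, adjusted p = 0.0515). The scalings moved the median of all genes by no more than 0.1. No paired analysis was possible because the mice of the genotypes share no label; their numbers were given in accession order. Depth limits Arg2 most among the genes tested (51 to 536 counts a library); the low count of Amd1 goes with its shared sequence.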
